A study of Canis lupus familiaris with 6 samples.

Results

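Cyclic AMP and cyclic GMP signalling genes were examined in dog kidney epithelial cells that had lost E-cadherin. The members were taken by symbol from the deposited table: cyclic nucleotide phosphodiesterases (PDE1 to PDE11), adenylyl cyclases (ADCY), subunits of protein kinase A (PKA) and kinase G, A-kinase anchoring proteins (AKAP), Rap exchange factors (RAPGEF), CREB1, CREB3L1, CREM and the CREB co-activators CRTC1 to CRTC3. Of 37 symbols that matched, PDE1A was left out by name, and PDE3A and PDE10A had a mean under 10 normalized counts over the 6 libraries. That gave 34 members of 12349 tested genes, taken by symbol and mean level, from a choice of symbols made with earlier results of these data known. ADCY2, also left out by name, was not analysed here. The fall of PDE1A in the knockout cells was larger than that of any member, and it is not in the counts below.

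The study measured poly-A RNA from MDCK type II cells, a Canis lupus familiaris kidney line that forms polarized epithelial sheets. There were 3 libraries from cells with E-cadherin knocked out (KO, labelled e-cadherin loss of function) and 3 from wild-type cells (WT, labelled control). No other allele or agent is named for either group. The labels give neither the number of KO clones nor the source culture of each library, and they differ on how dense the cells were. The p-values therefore measure library-to-library spread, which may be technical.

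Cyclic AMP is made by adenylyl cyclases when hormone receptors activate the stimulatory G protein, and is broken down by phosphodiesterases. It releases the catalytic subunits of PKA from their regulatory subunits, and anchoring proteins hold the kinase at particular membranes and organelles. It also opens some ion channels and activates the EPAC exchange factors of the small GTPase Rap, while PKA in the nucleus acts on the transcription factor CREB. In the kidney collecting duct, where vasopressin works through this route, cyclic AMP controls water and salt transport, and in MDCK cells it drives fluid secretion into cysts.

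The libraries held 18281549 to 19386796 normalized counts in all, a scale on which reads have already been divided by the authors' scaling. Across genes on the log2 scale, Pearson r was at least 0.987 for libraries of 1 group and at most 0.940 for libraries of different groups. WT replicate 2 stood further from the other WT libraries (chi-square per gene 7.91 and 11.1) than they did from each other (3.4). CDH1, the targeted gene, averaged 1157 ± 68.8 in KO and 39185 ± 573 in WT (SD, n = 3 each). Of 10 kidney epithelial markers, 9 were measured and tested, and KRT19 was not analysed here. Their summed level was 51570 to 54460 in KO and 95730 to 99520 in WT with CDH1 included, and 50450 to 53230 in KO and 56080 to 60150 in WT without it. Of the 8 markers other than CDH1, 3 rose and 2 fell. Of 9 fibroblast and mesenchymal markers only ACTA2 and PDGFRA were measured, and the other 7 were not analysed here. The summed level of ACTA2 and PDGFRA was 89.5 to 96.8 in KO and 29.5 to 46.8 in WT. The immune, endothelial and neural markers are not reported here. In bulk RNA, fewer cells of a type and less RNA per cell cannot be told apart.

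Values are normalized counts, fold changes are KO over WT on log2(normalized count + 1), and each adjusted p comes from a limma fit over all tested genes, by the Benjamini-Hochberg method. A gene was called at an adjusted p under 0.05. Of the 34 members, 7 rose, 11 fell and 16 did not pass, so 52.9% were called. Over all tested genes 48.1% were called, 23.6% higher and 24.5% lower in KO, and a share near that background is not a result about these genes. In the authors' deposited table, at the same threshold, 7 members were higher and 10 lower, where 45.0% of all tested genes were called. The 3 KO and 3 WT values did not overlap for 22 members (64.7%) and for 56.4% of all tested genes. The median log2 fold change was -0.10 over the members and -0.01 over all tested genes, and its median size was 0.26 and 0.21.

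Of the 34 members, 4 were both called and changed by at least 1.5-fold, as were 2100 of the 12349 tested genes (17.0%). The difference between these shares is not read as a result. AKAP12, PDE4B and AKAP13 fell and PDE7B rose. The other 14 called members had changes under 1.5-fold. Among the 7 roles, no role had all of its members called in 1 direction. Each role count below is to be set beside the 23.6% higher and 24.5% lower of all tested genes. The plot of fold changes by role shows how the members spread on both sides of 0.

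**Figure D1:**
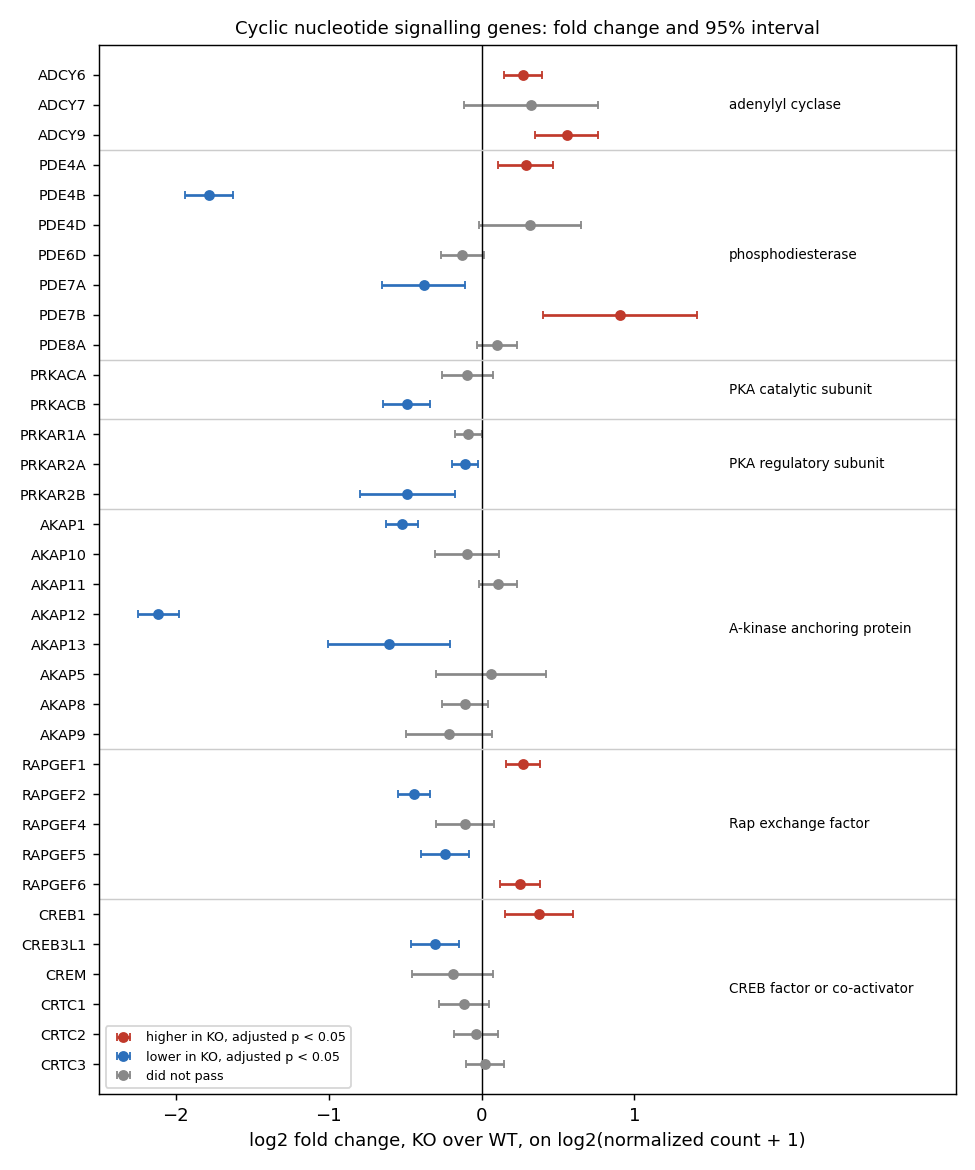
Log2 fold change (KO over WT) of the 34 members with its 95% interval, on the log2(normalized count + 1) scale, grouped by role. AKAP12 (-2.11) and PDE4B (-1.78) stand apart to the left, and PDE7B (0.90) is the furthest to the right.

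Of 3 measured adenylyl cyclases 2 rose and 1 did not pass. ADCY6, a calcium-inhibited cyclase that serves vasopressin in the collecting duct, was at 1174, 1160 and 1179 in KO and at 1006, 918 and 990 in WT. All KO libraries lay above all WT libraries (log2 fold change 0.27, SE 0.057, adjusted p = 0.00148). ADCY9, a cyclase that responds poorly to forskolin, was at 350, 377 and 333 in KO and at 255, 252 and 214 in WT, also with no overlap (log2 fold change 0.56, SE 0.096, adjusted p = 0.000295). ADCY7 was measured at low levels of 69.6, 80.4 and 51.7 in KO and 51.2, 65.3 and 43.7 in WT. Its groups overlapped, and its log2 fold change of 0.32 had a 95% interval from -0.12 to 0.76 (adjusted p = 0.213). Other cyclases were not analysed here.

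Phosphodiesterases changed in both directions, with 2 of 7 higher, 2 lower and 3 not passing. The PDE4 genes encode cyclic AMP-specific enzymes, the targets of rolipram. PDE4B was at 268, 306 and 275 in KO and at 984, 998 and 941 in WT. The KO libraries therefore held 29.0% of the WT mean, a 3.44-fold fall (log2 fold change -1.78, SE 0.074, adjusted p = 3.43e-10). Its paralog PDE4A was at 480, 534 and 547 in KO and at 451, 389 and 437 in WT, 1.22-fold higher (adjusted p = 0.0108). The groups of PDE4A did not overlap, though KO replicate 1 and WT replicate 1 were close. PDE4D was at 124, 110 and 111 in KO and at 72.8, 105 and 102 in WT. These groups did not overlap either, but the log2 fold change of 0.32 did not pass (95% interval -0.01 to 0.65, adjusted p = 0.105). With WT replicate 2 left out it was 0.41 and passed (adjusted p = 0.0488).

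If gene length acts alike in every library, it cancels when 1 ratio is compared between libraries. Whether it does so on this normalized scale was not tested, and such a ratio is not the relative amount of the transcripts. The ratio of PDE4B to PDE4A normalized counts was 0.558, 0.573 and 0.503 in the KO libraries and 2.18, 2.57 and 2.15 in the WT libraries. Every KO ratio lay below every WT ratio; the ratio was not tested, since it follows from the values of the genes above.

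The PDE7 genes, which also encode cyclic AMP-specific enzymes, had opposite signs. PDE7B was at 95.9, 73.7 and 57.1 in KO and at 34.0, 32.5 and 53.7 in WT, 1.87-fold higher (SE 0.23 on the log2 scale, adjusted p = 0.00585). Its spread was wide: the lowest KO library and the highest WT library were only 57.1 and 53.7. PDE7A was at 87.4, 94.1 and 97.7 in KO and at 114, 133 and 118 in WT, with no overlap (log2 fold change -0.38, adjusted p = 0.0238). Leaving out KO replicate 1, KO replicate 2 or WT replicate 2 ended that call (adjusted p = 0.0792, 0.0557 and 0.0819), and the gene did not pass in the authors' deposited table (adjusted p = 0.0744).

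PDE8A, a cyclic AMP-specific enzyme insensitive to most inhibitors, averaged 1229 ± 47.0 in KO and 1148 ± 70.4 in WT (log2 fold change 0.10, 95% interval -0.03 to 0.23, adjusted p = 0.197). With WT replicate 2 left out it passed (adjusted p = 0.0439). PDE6D, which despite its name is a carrier of prenylated proteins to the cilium and not a hydrolase, averaged 753 ± 26.9 in KO and 823 ± 48.0 in WT (adjusted p = 0.128).

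Of the phosphodiesterases that matched by symbol but are outside the members, PDE1A alone reached the minimum mean, and it fell. It reached that mean through its WT libraries only. PDE1A, a calmodulin-dependent enzyme that splits both nucleotides, was listed at 0 in every KO library and at 501, 587 and 482 in the WT libraries. PDE3A, a cyclic GMP-inhibited enzyme, was listed at 0 in every KO library and at 7.97, 14.1 and 2.58 in the WT libraries, under the minimum mean and so not tested. PDE10A was listed at 0 in all 6 libraries. Other phosphodiesterases were not analysed here.

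PKA genes fell or did not pass. Among catalytic subunits, PRKACB was at 935, 973 and 921 in KO and at 1316, 1470 and 1200 in WT. All KO libraries lay below all WT libraries (log2 fold change -0.49, SE 0.071, adjusted p = 6.82e-05). PRKACA, the other ubiquitous catalytic subunit, was at 1157, 1260 and 1277 in KO and at 1265, 1193 and 1492 in WT; the groups overlapped, and the log2 fold change of -0.09 did not pass (95% interval -0.26 to 0.08, adjusted p = 0.357). The ratio of PRKACB to PRKACA ran from 0.722 to 0.808 in KO and from 0.804 to 1.23 in WT. KO replicate 1 at 0.808 and WT replicate 3 at 0.804 overlapped, so this ratio did not separate the groups.

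Regulatory subunits hold the catalytic subunits inactive and set where the kinase is anchored. PRKAR2B was at 65.2, 73.2 and 65.6 in KO and at 93.8, 86.0 and 108 in WT, with no overlap (log2 fold change -0.49, adjusted p = 0.0132); the call was lost without WT replicate 3 (adjusted p = 0.0595). PRKAR2A averaged 6036 ± 75.3 in KO and 6495 ± 92.0 in WT, 1.08-fold lower (adjusted p = 0.0383). This small difference did not pass once any 1 of the 6 libraries was left out (adjusted p = 0.0556 to 0.113), and under quantile normalization its log2 fold change was -0.02 (adjusted p = 0.717). PRKAR1A, the type I subunit, averaged 4893 ± 45.3 in KO and 5194 ± 158 in WT and did not pass (log2 fold change -0.09, adjusted p = 0.107). PRKAR1B and the cyclic GMP-dependent kinases PRKG1 and PRKG2 were not analysed here, so no cyclic GMP-dependent kinase is among the members.

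**Figure D2:**
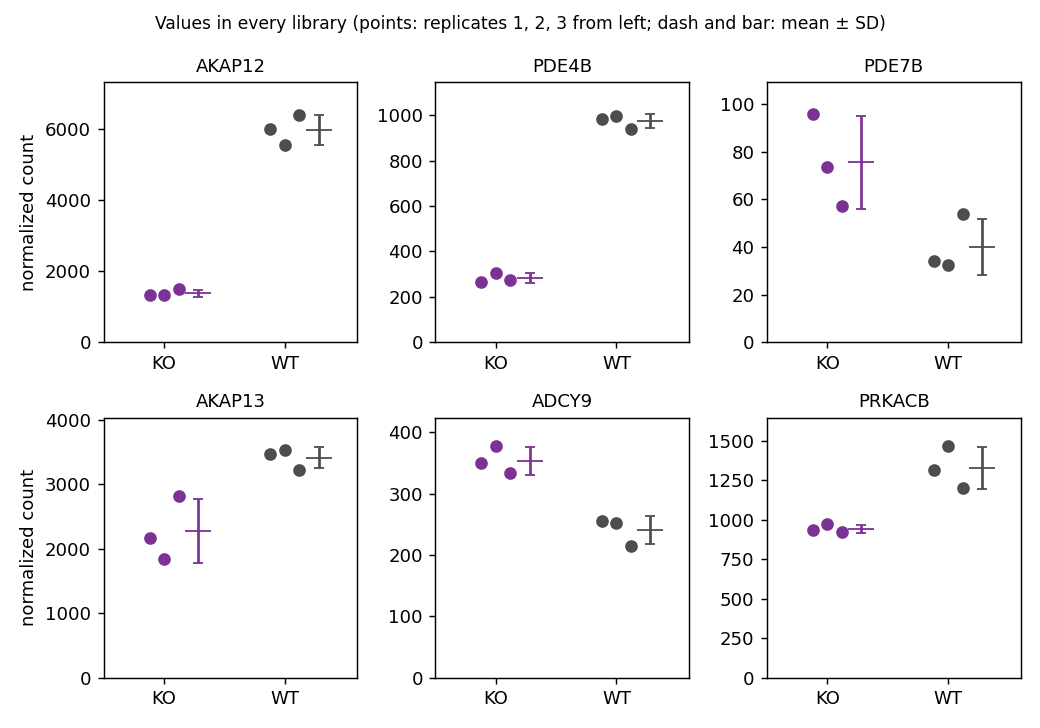
Normalized counts of 6 members in each library, KO left and WT right of each panel, with the mean and SD beside the points; every vertical axis starts at 0. All 6 are called members. KO and WT points do not overlap in any panel, and AKAP12 and PDE4B have the widest gap. Of all 34 members, 22 had no overlap. PDE7B and AKAP13 spread widely in KO, from 57.1 to 95.9 and from 1848 to 2819.

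Anchoring proteins held the largest change. AKAP12 encodes gravin, a scaffold under the plasma membrane that binds PKA, protein kinase C and the beta-adrenergic receptor. AKAP12 was at 1319, 1325 and 1484 in KO and at 5983, 5533 and 6367 in WT. The lowest WT library was well above the highest KO library, and the fall was 4.33-fold (log2 fold change -2.11, SE 0.062, adjusted p = 1.52e-11). Against AKAP11, an anchoring gene that did not pass, the AKAP12 ratio was 1.03, 1.04 and 1.15 in KO and 5.15, 4.36 and 5.61 in WT.

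AKAP1, which tethers PKA to the mitochondrial outer membrane, was at 1624, 1716 and 1643 in KO and at 2334, 2401 and 2418 in WT (log2 fold change -0.52, SE 0.048, adjusted p = 9.27e-07). The replicates were tight and the groups did not overlap. AKAP13, an anchoring protein that is also an exchange factor for RhoA, was at 2165, 1848 and 2819 in KO and at 3474, 3536 and 3227 in WT, 1.52-fold lower (SE 0.16 on the log2 scale, adjusted p = 0.0254). Its KO libraries spread widely. The call was lost without KO replicate 1 (adjusted p = 0.0853) and without WT replicate 1, 2 or 3 (adjusted p = 0.0644, 0.131 and 0.0757), while the log2 fold change was -0.46 without KO replicate 2 and -0.77 without KO replicate 3.

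The remaining 5 anchoring genes did not pass. AKAP9, of the Golgi and centrosome, averaged 2016 ± 285 in KO and 2328 ± 263 in WT (log2 fold change -0.21, 95% interval -0.49 to 0.07). AKAP8, a nuclear anchor, had a value of -0.11 on the same scale (adjusted p = 0.230) and just passed with KO replicate 1 left out (adjusted p = 0.04996). AKAP11, which also binds protein phosphatase 1, had 0.11 (adjusted p = 0.138) and passed with WT replicate 2 left out (adjusted p = 0.0243). AKAP10, which binds both types of regulatory subunit, was at -0.09 (adjusted p = 0.461) and AKAP5, a plasma membrane anchor, at 0.06 (adjusted p = 0.778). AKAP5 had the fewest counts of the role, 57.8 ± 7.40 in KO and 55.1 ± 4.07 in WT, and an interval from -0.30 to 0.42. By limma 3 of 8 anchoring genes fell and 0 rose, so 37.5% were called, where all tested genes gave 48.1% in either direction and 24.5% lower in KO. At an unadjusted p under 0.05 the share was 37.5% as well, against 54.3% of all tested genes.

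Rap exchange factors changed in both directions, with 2 of 5 higher, 2 lower and 1 not passing. RAPGEF1, activated through adaptor proteins of receptor and adhesion signalling, was at 2201, 2229 and 2412 in KO and at 1900, 1838 and 1932 in WT (log2 fold change 0.27, SE 0.052, adjusted p = 0.000723). RAPGEF6, a PDZ-domain exchange factor, averaged 1119 ± 51.6 in KO and 938 ± 40.9 in WT (log2 fold change 0.25, adjusted p = 0.00338). Both were higher in every KO library than in any WT library.

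RAPGEF2, the other PDZ-domain exchange factor, was at 1769, 1707 and 1754 in KO and at 2379, 2456 and 2276 in WT (log2 fold change -0.44, SE 0.049, adjusted p = 5.75e-06). The ratio of RAPGEF2 to RAPGEF1 was 0.804, 0.766 and 0.727 in KO and 1.25, 1.34 and 1.18 in WT, with no overlap. RAPGEF5 averaged 603 ± 17.8 in KO and 714 ± 61.1 in WT (log2 fold change -0.24, adjusted p = 0.0145), and its call was lost without KO replicate 2 (adjusted p = 0.0638) or WT replicate 1 (adjusted p = 0.0884). RAPGEF4, which encodes EPAC2 and is directly opened by cyclic AMP, averaged 349 ± 14.1 in KO and 377 ± 37.0 in WT and did not pass (log2 fold change -0.11, 95% interval -0.30 to 0.08, adjusted p = 0.329). RAPGEF3, which encodes EPAC1, was not analysed here.

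Of 6 CREB factors and co-activators, 1 rose, 1 fell and 4 did not pass. CREB1, the factor that PKA phosphorylates, was at 436, 509 and 511 in KO and at 416, 389 and 319 in WT. The groups did not overlap, although KO replicate 1 and WT replicate 1 were close (log2 fold change 0.38, SE 0.10, adjusted p = 0.00830). CREB3L1, a membrane-bound factor of the secretory pathway that is released by cleavage, was at 473, 492 and 464 in KO and at 623, 541 and 603 in WT (log2 fold change -0.30, adjusted p = 0.00396).

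CREM, whose locus also makes repressor forms that gene-level values do not separate, was at 112, 124 and 144 in KO and at 151, 141 and 139 in WT. The groups overlapped, and the log2 fold change of -0.19 had an interval from -0.45 to 0.08 (adjusted p = 0.227). The co-activators had narrow intervals: CRTC1 was at -0.11 (adjusted p = 0.236), CRTC2 at -0.04 (95% interval -0.18 to 0.11) and CRTC3 at 0.02 (95% interval -0.10 to 0.14). The heat map of every member and library shows how far the replicates of each gene held together.

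**Figure D3:**
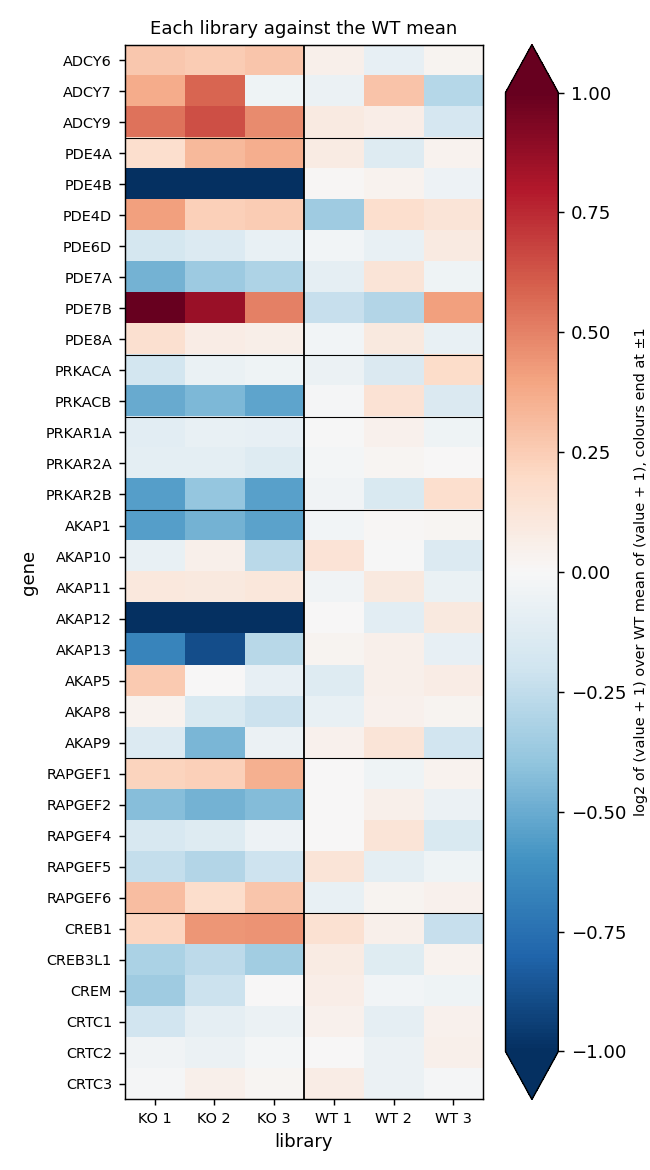
Each library (KO 1 to 3, then WT 1 to 3) against the WT mean of the same gene, as log2 of value + 1 over the WT mean of value + 1; red is higher, blue lower, and colours end at 1 and -1. PDE4B and AKAP12 are at the dark blue end in all 3 KO libraries, PDE7B and AKAP13 are uneven among the KO libraries, and the CRTC rows stay near white.

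Some members lie among genes that were also called, so each member was set beside the 10 nearest placed and tested genes on each side, in the order that the dog assembly UU_Cfam_GSD_1.0 gives. All 34 members were placed. Beside RAPGEF2, 11 of 17 neighbours were called lower and 2 higher, and their median log2 fold change was -0.33, close to the -0.44 of the gene itself. Over all tested genes 23.6% were called higher and 24.5% lower. Beside RAPGEF6, which rose, 9 of 20 neighbours were called higher and 3 lower, with a median of 0.12. Beside AKAP1, which fell, 10 of 20 were called higher and 4 lower, also with a median of 0.12. Beside AKAP12 the median of 20 neighbours was -0.08 and beside PDE4B -0.01, with 6 and 7 of 20 called lower. For PDE7B the median was -0.10, for AKAP13 -0.0029, for ADCY9 0.08 and for PRKACB -0.04. The neighbours of the other members are not described here. The part of gene position in the changes was not tested.

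Other genes of the pathway were read from 9 lists, chosen with earlier results of these data known. Of 65 tested genes, each counted once, 17 rose, 25 fell and 23 did not pass, so 64.6% were called. Over all tested genes 48.1% were called, 23.6% higher and 24.5% lower in KO, the shares to set beside each list below. The choice of genes could raise the called share, so the difference is not read as a result. The median log2 fold change of the list genes was -0.15.

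Gs-coupled receptors counted 2 higher and 1 lower of 5. AVPR2, the vasopressin receptor of the collecting duct, was at 43.2, 45.0 and 49.8 in KO and at 11.4, 5.31 and 10.3 in WT. It was low in both groups, with every KO library above every WT library (log2 fold change 2.29, SE 0.29, adjusted p = 2.15e-05). The prostaglandin E2 receptors moved oppositely. PTGER4 averaged 99.5 ± 4.32 in KO and 51.2 ± 7.85 in WT, and PTGER2 averaged 2144 ± 21.2 in KO and 3122 ± 240 in WT (adjusted p = 0.000186 and 3.29e-06). GNAS, which encodes the stimulatory G protein, did not pass (log2 fold change -0.02, adjusted p = 0.732). In its list of 10, 2 rose and 3 fell: GPSM1 was 1.35-fold higher, and CAP1, an adenylyl cyclase-associated actin regulator, GPSM2 and RGS2 were 1.22-fold, 1.21-fold and 1.18-fold lower. The RGS2 call was lost without KO replicate 2 (adjusted p = 0.0936) and that of GPSM2 when the trend and robust options were turned off (adjusted p = 0.0512).

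In the list of effectors and exporters, 2 of 5 rose and 2 fell. ABCC4, the exporter MRP4 that carries cyclic nucleotides out of cells, was at 952, 906 and 912 in KO and at 2296, 2440 and 2335 in WT (log2 fold change -1.35, SE 0.052, adjusted p = 1.73e-10). ABCC5, an exporter of cyclic GMP, was at 457, 379 and 347 in KO and at 993, 911 and 902 in WT (log2 fold change -1.25, adjusted p = 1.41e-07). In neither gene did the groups overlap. Beside ABCC5, 16 of 20 neighbouring genes were also called lower, with a median of -0.35. HCN3 and HCN2, channels with a cyclic nucleotide-binding domain, were 2.21-fold and 1.68-fold higher. The HCN2 call was lost without KO replicate 2 (adjusted p = 0.0723) and in the authors' deposited table (adjusted p = 0.0645). NPR1, a receptor guanylate cyclase for natriuretic peptides, averaged 49.1 ± 2.20 in KO and 34.4 ± 4.03 in WT (adjusted p = 0.0355), and this call was lost on leaving out any library except WT replicate 2 (adjusted p = 0.0616 to 0.107), under quantile normalization (adjusted p = 0.128) and in the authors' deposited table (adjusted p = 0.185).

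Among 6 further PKA-pathway genes 1 rose and 4 fell. EZR, the microvillar anchor ezrin, fell 1.18-fold and AKAP17A 1.45-fold, and ARFGEF2 rose 1.64-fold. All 20 neighbours of ARFGEF2 were called higher (median 1.04), and 8 of 15 neighbours of AKAP17A were called lower (median -0.43). Of 10 CREB relatives, co-activators and salt-inducible kinases, 4 rose and 2 fell, with CREB5 1.96-fold and SIK3 1.23-fold higher and ATF1 1.39-fold and CREBL2 1.31-fold lower.

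Known CREB targets were divided, with 4 of 14 higher, 5 lower and 5 not passing. ID2 averaged 2229 ± 38.1 in KO and 1012 ± 94.6 in WT. FOS averaged 659 ± 62.5 in KO and 1849 ± 86.4 in WT, and EGR1 5636 ± 191 in KO and 7733 ± 208 in WT. PTGS2, the enzyme that starts prostaglandin synthesis, had the lowest log2 fold change of these lists, -7.29. Of 4 tested collecting duct genes, SCNN1A, a subunit of the epithelial sodium channel, fell 2.52-fold, and AQP3, a basolateral water channel, was at 7.85, 7.19 and 12.5 in KO and at 39.9, 28.4 and 34.4 in WT, while AVPR2 rose as above. The KO mean of AQP3, 9.17, was under the minimum of 10, which the gene passed only through its WT libraries. Neither AQP3 nor AVPR2 was tested with a minimum mean of 50. AQP2 and CFTR were not analysed here. Rap GTPases and their regulators counted 1 higher and 7 lower of 11, against 23.6% higher and 24.5% lower among all tested genes. SIPA1 was 2.70-fold higher, and RAP1GAP, RAP2C and SIPA1L3 were 1.56-fold, 1.75-fold and 1.17-fold lower.

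**Figure D4:**
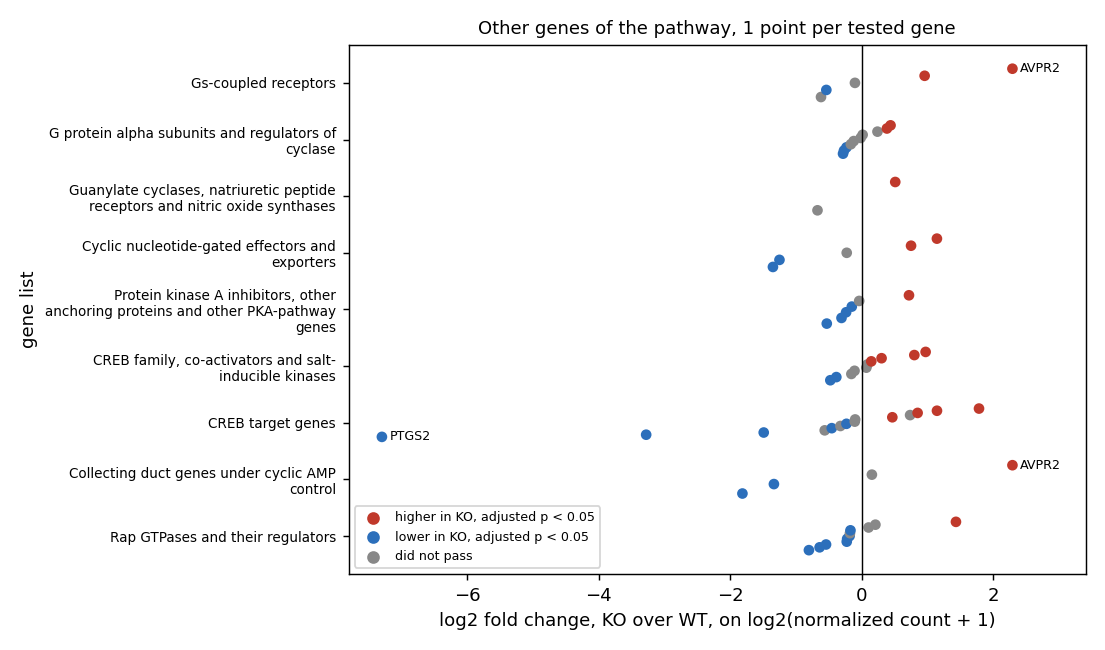
Log2 fold change (KO over WT) of the tested genes in 9 other lists of the pathway, 1 point per gene, on the log2(normalized count + 1) scale; AVPR2 and RGS2 each stand in 2 lists. Each list with more than 2 tested genes has called genes on both sides of 0; PTGS2 is the lowest point and AVPR2 the highest.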

How the data were processed

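RNA was measured in 6 libraries, 3 KO and 3 WT. The submitters' processing notes name STAR 2.5.2b and featureCounts, with DESeq2 1.14.1, Picard 2.8.1 and FastQC; the sources used here do not give the genome build. The authors deposited a normalized count per library for 12851 genes, a signal that is not whole. Whole reads could not be recovered, so no count test was run. Per the file headers their table also holds the authors' mean, log2 fold change with standard error, a score (fold change over error), p-value and adjusted p-value.

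Of the 12851 genes, 12349 had a mean of 10 or more and entered, as log2(value + 1), a fit in limma 3.58.1 in R 4.3.3 (group term, trend and robust options, statmod 1.5.0, two-sided, Benjamini-Hochberg). Other steps used pandas 2.3.3 and numpy 2.4.6 under Python 3.11.15. Tested on simulated data of 12305 genes in the KO against WT layout, the step recovered 92% of 100 genes changed 1.5-fold and 98% of 100 changed 3-fold, with 8 false calls of 198. The simulation used 1 common spread setting for all genes and changed only the planted ones. In the real data 48.1% of genes were called, so these rates may not carry over. Replicates were compared before averaging: chi-square per gene was 3.00 to 11.1 within groups, and 0 values above 0 were identical.

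Of 10003 tested symbols, 9788 were placed in the reference gene order. Of rows that share a symbol, the most abundant was used. Overlapping or near-identical genes could not be assessed. Members called with at least 1.5-fold change were to be given in every library, other members by role, and up to 4 called genes per list with the smallest adjusted p; GNAS and any other list gene named, and the paralog ratios, were chosen after their values were seen. The members and the lists were chosen with earlier results of these data known. Alternatives were library rescaling, pseudocounts, filters, limma options, a replicate block, leaving out each library and the authors' own calls.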

Additional observations from a re-analysis of the deposited data

Results flagged for a closer look

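For 5 phosphodiesterase and PKA genes the authors' deposited mean of normalized counts was far above the 6 libraries, a signal in a column that the comparison did not use. In the authors' deposited table the mean was 24.1 for PDE10A, which was listed at 0 in all 6 libraries. It was 116 for PDE3A, against a mean of 4.11 over the 6 libraries. For PDE4B it was 1691 against 629, for PDE4D 259 against 104 and for PRKAR2B 299 against 81.9. Smaller excesses were not flagged. The deposited mean of ADCY6 was 1364, where its highest library was at 1179, and that of AKAP1 was 2720.5, where its highest was at 2418. Other members had a deposited mean below that of the 6 libraries, such as CREB3L1 (374 against 533). For no gene did the 6 libraries average more than 1.5 times the deposited value, and 60 genes lay within 1e-06 of that limit. A deposited mean taken over 9 libraries would have this limit; any others are not analysed here. Groups of 3 were not checked for outlying values gene by gene.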

How the results depend on the processing

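Of the 18 called members, 13 kept their call and direction under all 15 alternatives, AKAP12, PDE4B, PDE7B, AKAP1, PRKACB, RAPGEF2, ADCY6 and ADCY9 among them; AKAP13, PDE7A, PRKAR2A, PRKAR2B and RAPGEF5 lost it under at least 1, and 4 of the 16 others passed under 1. Leaving out 1 library gave 7 to 10 members higher and 8 to 10 lower (10 higher and 8 lower without WT replicate 2, 7 higher on leaving out each of the others), and 13 to 15 genes of the other lists higher and 22 to 27 lower. With a mean of at least 50, 11 list genes were higher in place of 17, since 52 and not 65 were tested. No called member changed sign. Uncalled log2 fold changes changed sign under quantile normalization for AKAP5 (-0.082) and PRKAR1A (0.0029); the cause was not tested. On leaving out 1 library, AKAP5 ranged from -0.036 to 0.13, CRTC3 from -0.0089 to 0.057 and PRKACA from -0.16 to 0.0017. Same-numbered libraries did not deviate together (correlations of 0.054, -0.026 and -0.040), so the numbers were not taken as pairs. With a replicate block, 7 members were higher and 9 lower, AKAP13 (adjusted p = 0.111) and PRKAR2A (adjusted p = 0.0528) losing their call, and 16 list genes were higher and 27 lower. Depth is known only on the normalized scale.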
